A study of Homo sapiens with 6 samples.

Results

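SERINC1, GET1, TVP23B, MZT1, BBS10 and MRFAP1L1 are 6 genes whose array signal lay above that of the control with both ZFX hairpins in both leukemia lines. They were chosen by these signals, so their differences to control are given as a description, without a test. They are 6 of 11785 genes measured and of 1497 genes that lay above control on all 4 silenced arrays, which is 12.7% of all genes. Each of 5 members had 1 probe set on the array and MZT1 had 2, giving 7 probe sets.

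The RNA came from Jurkat, a line grown from the blood of a patient with acute T cell leukemia, and from K562, which derives from chronic myeloid leukemia and carries markers of the erythroid lineage. ZFX is a zinc finger transcription factor encoded on the X chromosome, and it was silenced with lentiviral short hairpin RNAs, 381 or 1012, followed by sorting of fluorescent cells. Each line gave 1 control array, 1 array with hairpin 381 and 1 array with hairpin 1012, so 6 arrays in all. An array carried RNA pooled from 3 replicates and counts as 1 sample. The culture protocol describes a control hairpin vector (shNC), whereas the sample labels call the control cells normal, so an effect of infection and sorting cannot be told apart from one of silencing. Both hairpins of a line were set against the same control array.

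The 6 proteins belong to different cellular systems. SERINC1 is a multipass membrane protein of a family named for the incorporation of serine into membrane lipids. GET1 is a membrane subunit of the complex that inserts tail-anchored proteins into the endoplasmic reticulum, where it works with CAMLG and receives its clients from the ATPase GET3. TVP23B is a membrane protein of the Golgi apparatus that works with YIPF family proteins. MZT1 is a small subunit of the gamma-tubulin ring complex, which nucleates microtubules at centrosomes. BBS10 resembles group II chaperonins and helps, with BBS12 and MKKS, to assemble the BBSome, a coat complex for traffic into cilia. MRFAP1L1 is a relative of MRFAP1, which binds the MORF4 family chromatin protein MORF4L1.

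The array checks bear on every value below. All arrays had the same 2% trimmed mean of 499.9. Of 4 ZFX probe sets 2 were above the background level (the 95th percentile of background probe sets) on all 6 arrays, and they read between 23.8% and 67.6% of the line's control on the silenced arrays. The other 2 were below that level on 1 or more silenced arrays, so they give no exact share. All 15 T cell marker genes measured exceeded background in Jurkat and 4 did in K562 cells, while 10 of 11 erythroid and myeloid markers exceeded it in K562 and 4 in Jurkat cells. The poly-A spikes, bacterial transcripts added to the RNA before labelling, also read above control on the silenced arrays. Of their 24 probe sets, 16 exceeded control on the Jurkat 381 array, 24 on the Jurkat 1012 array, 22 on the K562 381 array and 24 on the K562 1012 array, with median log2 differences of 0.0751, 0.446, 0.342 and 0.689 in that order. The hybridisation controls, added after labelling, had medians between -0.0193 and 0.0791. The 3' to 5' signal ratio of the actin control was 9.27 on the Jurkat control, 9.99 under 381 and 8.43 under 1012, against 11.1, 8.61 and 7.54 on the K562 arrays in the same order. The part of the spikes and of this ratio in the members' differences was not tested.

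Among the members with roles in membranes, SERINC1 read 3060 on the Jurkat control array, 5120 on the 381 array and 5123 on the 1012 array. Its K562 signals were 2588, 3810 and 4697 in the same order. The silenced arrays did not overlap the controls, also across the lines, since the lowest silenced signal (3810) exceeded the higher control (3060). This comes from the signals by which the members were chosen. The share of all genes without such overlap was not counted, here or for the members below. The arrays stood 67.3%, 67.5%, 47.2% and 81.5% above control, and the mean log2 difference was 0.723 ± 0.124 (SD, n = 4 arrays). A log2 difference is taken here on log2(signal + 16.9), which hardly affects bright probe sets. The smallest of the 4 differences, 0.56, was seen in K562 cells with hairpin 381.

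GET1 had signals of 4101, 6044 and 6298 on the control, 381 and 1012 arrays of Jurkat cells. The K562 arrays gave 3828, 5232 and 5911. Again every silenced array lay above both controls. The log2 differences were 0.56 and 0.62 in Jurkat and 0.45 and 0.62 in K562 cells, with a mean of 0.562 ± 0.081 (SD, n = 4), the smallest SD of the 6 genes.

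TVP23B read 1142 on the Jurkat control, 2005 under 381 and 1798 under 1012. On the K562 arrays it read 767 for the control, then 1220 and 1594. All 4 silenced arrays exceeded the controls, with K562 cells and hairpin 381 only slightly above the Jurkat control. The mean log2 difference was 0.787 ± 0.182 (SD, n = 4), and the highest, 1.04, came from K562 cells with hairpin 1012. The TVP23B probe set is of a type whose probes can match more than 1 transcript, and TVP23B has the closely related gene TVP23C on the same chromosome. A probe set annotated to TVP23C alone read 12.9, 56.6 and 33.9 in Jurkat and 102, 152 and 119 in K562 cells. These values were above control on all 4 arrays too, while the Jurkat values were near or below the 95th percentile of background probe sets (44.1 to 56.1). A probe set shared by TVP23C, CDRT4 and their readthrough gene lay below control on all 4 arrays, by -0.80, -0.89, -0.01 and -0.16, and another shared by them had differences of 0.15, -0.77, -0.97 and -0.42. How much TVP23C transcript the TVP23B probes capture was not tested.

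TVP23B and TVP23C share a stretch of sequence upstream of their start sites, which does not show how alike their transcripts are. The upstream sequences are shown. They are the 250 bases before each start, from RefSeq on GRCh38.p14, written 5′ to 3′ on the gene's strand, for TVP23B at chr17:18780933-18781182 on the plus strand and for TVP23C at chr17:15563484-15563733 on the minus strand. Capitals mark their longest identical run, of 54 bases.
TVP23B: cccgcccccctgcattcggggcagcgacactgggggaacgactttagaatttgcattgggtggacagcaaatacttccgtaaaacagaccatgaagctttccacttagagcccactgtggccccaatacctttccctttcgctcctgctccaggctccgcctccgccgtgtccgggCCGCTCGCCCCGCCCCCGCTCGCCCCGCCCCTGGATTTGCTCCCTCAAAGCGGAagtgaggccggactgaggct
TVP23C: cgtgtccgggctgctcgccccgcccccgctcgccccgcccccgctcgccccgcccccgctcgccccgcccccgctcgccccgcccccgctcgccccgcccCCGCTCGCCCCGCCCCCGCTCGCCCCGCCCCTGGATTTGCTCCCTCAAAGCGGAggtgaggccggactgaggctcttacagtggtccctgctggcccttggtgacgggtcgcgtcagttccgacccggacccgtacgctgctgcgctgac
The run lies from base -74 to -21 before the TVP23B start and from base -150 to -97 before the TVP23C start.

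MZT1 had the widest differences and the widest spread of the 6 genes. Its brighter probe set read 3215 on the Jurkat control, 7895 under 381 and 10292 under 1012. The K562 values were 2244, 3362 and 7971. The K562 array with hairpin 381 lay just above the Jurkat control, while the other 3 silenced arrays were far above both controls. The silenced arrays stood 146%, 220%, 49.8% and 255% above control, and the mean log2 difference was 1.341 ± 0.555 (SD, n = 4). The second MZT1 probe set read 314, 401 and 365 in Jurkat and 198, 165 and 259 in K562 cells. It lay above control on 3 of 4 arrays, with log2 differences of 0.338, 0.207, -0.243 and 0.36 and a mean of 0.165 ± 0.281. In K562 cells with hairpin 381 it was thus below control, on the array where the brighter probe set also had its smallest difference. The probe sets thus differed in size on every array and in sign on 1. Averaging both gave a mean of 0.75 in place of 1.34.

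BBS10 read 669 on the Jurkat control, 1186 under 381 and 1227 under 1012. It read 601, 953 and 989 on the K562 arrays. The silenced arrays lay between 58.6% and 83.3% above control and did not overlap either control. The mean log2 difference was 0.755 ± 0.095 (SD, n = 4). Both hairpins gave nearly the same signal within each line.

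MRFAP1L1 differed from the other 5 genes in the order of its levels. It read 2817 on the Jurkat control, 4838 under 381 and 4756 under 1012, whereas the K562 signals were 4355, 5584 and 5398. The K562 control was therefore close to the silenced Jurkat arrays. The differences to control were 0.78 and 0.75 in Jurkat but 0.36 and 0.31 in K562 cells, with a mean of 0.549 ± 0.25 (SD, n = 4). The near relative MRFAP1 had differences of 0.05, 0.09, -0.01 and -0.03, and MRFAP1L2 had 0.23, 0.18, 0.21 and -0.07.

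**Figure D1:**
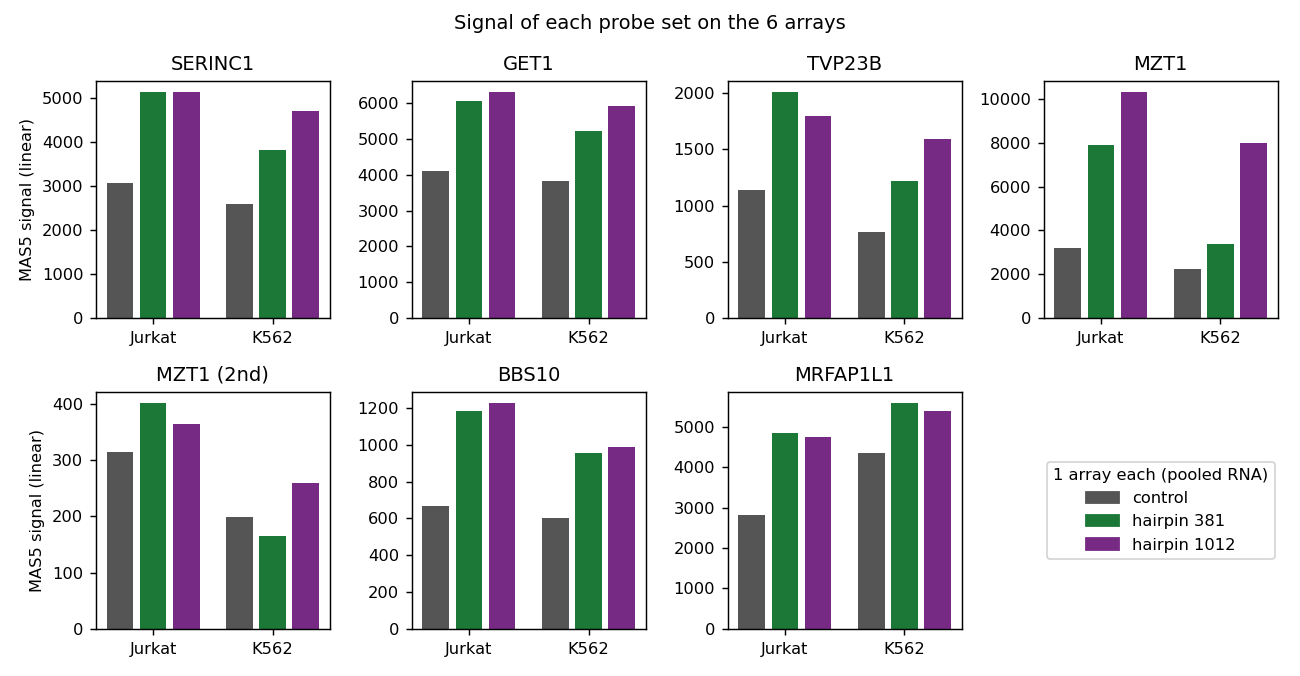
MAS5 signal on a linear axis of each of the 7 probe sets on the 6 arrays, with grey bars for control, green for hairpin 381 and purple for hairpin 1012. Each bar is 1 array of pooled RNA without an error bar. Controls are lowest in each line except for the second MZT1 probe set in K562 cells, where hairpin 381 (165) is below control (198).

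The choice of genes fixes the direction of these differences, and 1497 of 11785 genes met the same condition. Values next to its limit were a smallest difference of 0.00016 for MCM6 just inside and -0.00020 for ABCG2 just outside, whereas the smallest difference of a member was 0.31, for MRFAP1L1. By that smallest difference BBS10 ranked 7, TVP23B 8, MZT1 18, SERINC1 20, GET1 50 and MRFAP1L1 158 of all genes. Among 4316 genes whose mean signal lay in the members' range, 13.1% were above control on all 4 arrays. The central 90% of these genes lay between -0.683 and 0.617 on the K562 array with hairpin 1012 and within narrower limits on the other 3.

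**Figure D2:**
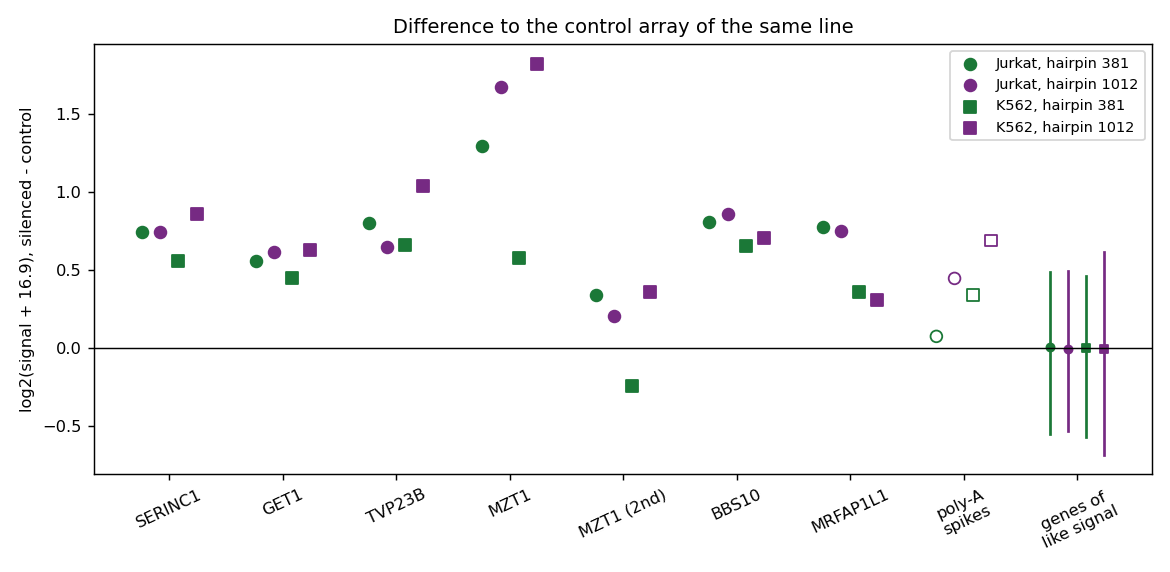
Difference to the control array of the same line, in log2(signal + 16.9), for the 7 probe sets, with circles for Jurkat, squares for K562, green for hairpin 381 and purple for hairpin 1012. Open symbols are medians of the poly-A spikes, and vertical lines run from the 5th to the 95th percentile of 4316 genes of like signal. MZT1 spans 0.58 to 1.82, and the second MZT1 probe set is below 0 in K562 cells with hairpin 381.

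The arrays were also scaled to the poly-A spikes, an alternative chosen after seeing them. The median silenced minus control difference of all genes, averaged over both lines, went from -0.0134 to -0.406. Then 65 genes, or 0.552%, remained above control on all 4 arrays, and of the members SERINC1, TVP23B, BBS10 and the brighter MZT1 probe set did. GET1 was below control in K562 cells with hairpin 1012, by -0.0625, and MRFAP1L1 on both silenced K562 arrays, by -0.014 and -0.378. The means became 0.33 for SERINC1, 0.169 for GET1, 0.394 for TVP23B, 0.948 for MZT1, 0.363 for BBS10 and 0.156 for MRFAP1L1. This scaling multiplies all signals of an array by 1 factor.

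Every probe set of the members was measured above background. Background was taken from 54 probe sets of 33 genes typical of other tissues, whose median signal was between 8.04 and 14.3 and whose 95th percentile was between 44.1 and 94.5. SERINC1 lay between 27.4 and 116 times that percentile, GET1 between 40.5 and 143 times, and MRFAP1L1 between 46.1 and 108 times. TVP23B lay between 8.11 and 40.8 times and BBS10 between 6.36 and 27.8 times. The brighter MZT1 probe set was at 23.7 to 233 times, and the second one at only 1.89 to 8.26 times. The K562 control had the smallest ratio for each of these 7 probe sets except the second of MZT1, and its background percentile, 94.5, was the highest of the 6 arrays. The 6 fitted probe sets stood between percentiles 80.9 and 98.5 of all probe sets on an array, and the second MZT1 probe set between percentiles 66.7 and 76.1. In bulk RNA, more signal can come from more transcript per cell or from a shift among cells, which cannot be told apart here.

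**Figure D3:**
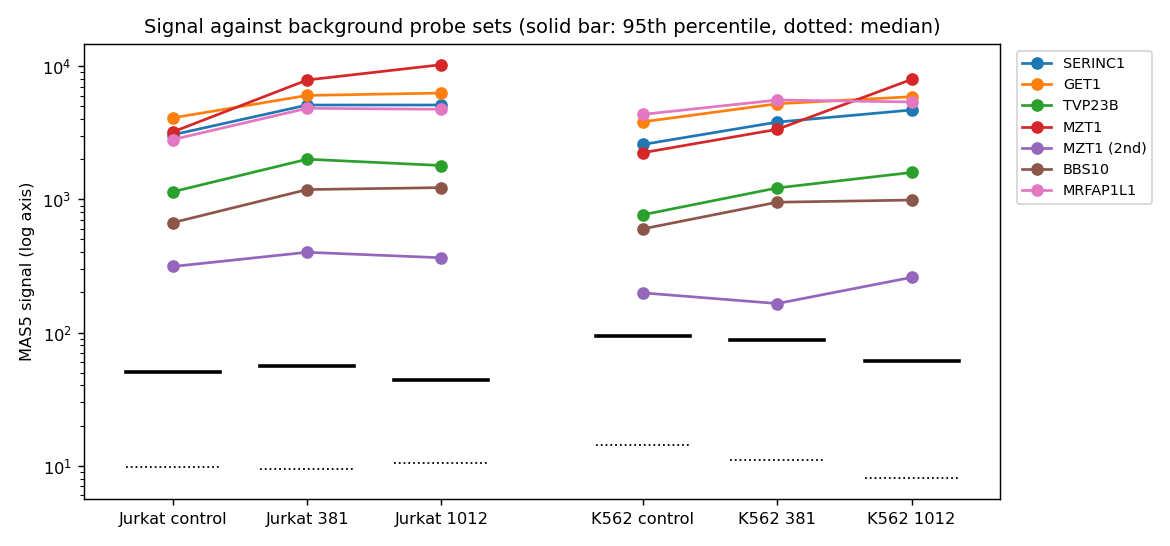
MAS5 signal on a log axis of the 7 probe sets on the 6 arrays, with the 95th percentile (solid bar) and the median (dotted bar) of 54 background probe sets of genes from other tissues. Lines join arrays of 1 line only to guide the eye. All coloured points lie above the solid bars, the second MZT1 probe set by the smallest margin, at 1.89 times on the K562 array with hairpin 381.

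The rule did not use the difference between the lines. This difference was tested with limma over all genes as the mean of the 3 K562 arrays minus that of the 3 Jurkat arrays. Its errors come from the spread between the hairpins within a line. The members were listed among genes of small p, which favours a small spread there, so the errors of this test may be too small. Of the 6 members 2 passed at an adjusted p of 0.05, 1 in each direction, while 56.4% of all genes passed, 26% higher and 30.4% lower in K562 cells. TVP23B was lower in K562 cells by a log2 value of -0.48 ± 0.18 (SE, limma adjusted p = 0.0485), and MRFAP1L1 was higher by 0.34 ± 0.12 (limma adjusted p = 0.0442). MZT1 had -0.70 ± 0.29 (limma adjusted p = 0.0709), SERINC1 -0.26 ± 0.14, BBS10 -0.26 ± 0.16 and GET1 -0.13 ± 0.12, and these 4 did not pass. The calls also changed when single arrays were left out. Leaving out an array changes the share of control in a line's mean. The value then moves with the silencing difference by which the members were chosen. Nothing about the lines is therefore read from calls gained or lost in this way. Without the Jurkat control MZT1 (-1.20, limma adjusted p = 0.015), SERINC1 (-0.51, 0.0249) and BBS10 (-0.53, 0.0398) passed. Without the K562 1012 array MZT1 (-1.21, limma adjusted p = 0.000138) and SERINC1 (-0.46, 0.0331) passed, and without the K562 381 array MZT1 did (-0.59, 0.0108). Without the K562 control the values fell in size to -0.30 for MZT1, -0.028 for SERINC1 and -0.031 for BBS10. With the mean of its probe sets MZT1 passed as well, at -0.73 (limma adjusted p = 0.0329). Both calls of the full set sat close to the threshold and were lost without a filter, at limma adjusted p = 0.0607 for TVP23B and 0.0524 for MRFAP1L1. Both were also lost with quantile normalization (0.0942 and 0.0797) and without an intensity trend (0.0684 and 0.106). The smaller pseudocount lost that of TVP23B (0.0513), and the stricter filter that of MRFAP1L1 (0.051). The call of TVP23B was also lost without the Jurkat 381 array (adjusted p = 0.272), the Jurkat 1012 array (0.175) or the K562 control (0.429). That of MRFAP1L1 was lost without the Jurkat control (adjusted p = 0.628), the K562 381 array (0.166) or the K562 1012 array (0.131). Scaling to the spikes moved the median line difference of all genes from -0.0377 to 0.706, and with it TVP23B to 0.26 and MRFAP1L1 to 1.08.

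The hairpins were compared over both lines in a fit with the line as a block. Of the members 0 passed with limma (1 had an unadjusted p under 0.05), against 0.925% of all genes. Over all genes, 1706 of 11785 had an unadjusted p under 0.05 in this comparison. The 1 member was MZT1, higher with hairpin 1012 than with 381 by 0.81 ± 0.18 (SE, limma adjusted p = 0.0854, 95% interval 0.40 to 1.23). The difference was seen in both lines, with signals of 10292 against 7895 and of 7971 against 3362, but its size rested on single arrays. It was 1.20 without the Jurkat 381 array (limma adjusted p = 0.00101) and 1.06 without the Jurkat 1012 array (0.0302). It was 0.42 without the K562 381 array (limma adjusted p = 0.382) and 0.56 without the K562 1012 array (0.326). With the mean of both probe sets it was 0.52 (limma adjusted p = 0.343). The intervals of the other genes included 0, from -0.13 to 0.43 for SERINC1, -0.12 to 0.36 for GET1, -0.28 to 0.51 for TVP23B, -0.33 to 0.43 for BBS10 and -0.34 to 0.27 for MRFAP1L1. The members were listed among genes of small p, which favours a small spread between hairpins, so these errors may be too small.

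The silencing difference was also compared between the lines, as an interaction. With limma 0% of all genes passed, 0 of the 6 members did (0 at an unadjusted p under 0.05), and 289 of 11785 genes had an unadjusted p under 0.05. MRFAP1L1 had the lowest value, with K562 below Jurkat by -0.43 ± 0.26 (SE, limma adjusted p near 1, 95% interval -1.03 to 0.17). The intervals were wide, reaching from -0.72 to 0.65 for SERINC1 and from -1.71 to 1.14 for MZT1, and the interaction is made from the same 4 differences to control by which the members were chosen, so nothing is read from it.

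**Figure D4:**
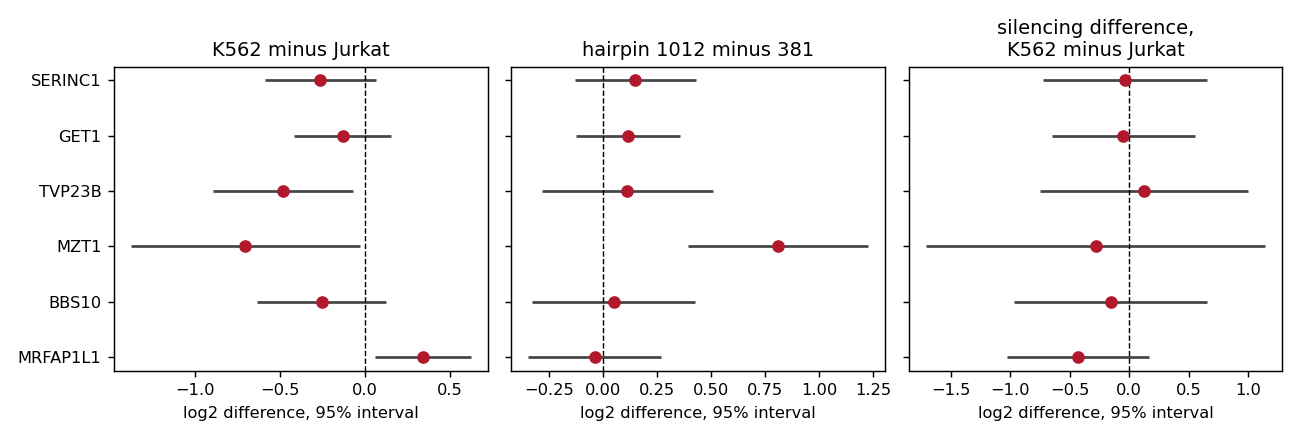
Log2 differences with 95% intervals from limma for the 6 genes, for K562 minus Jurkat over all arrays, for hairpin 1012 minus 381 over both lines, and for the silencing difference in K562 minus that in Jurkat cells. Each panel has its own horizontal scale. In the middle panel MZT1 has an interval from 0.40 to 1.23, and all other intervals there cross 0.

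Other genes of the members' pathways were taken from 7 lists drawn up with earlier results of these data known. Of 51 other genes measured, 0 passed in either direction in the average of both lines with limma (1 had an unadjusted p under 0.05), as did 0% of all 11785 genes. Over all genes, 713 of 11785 had an unadjusted p under 0.05. The averages of the 51 genes were above control for 26 and below for 25, with a median of 0.00581 against -0.0134 over all genes. On all 4 silenced arrays 9 of them lay above control, or 17.6% against 12.7% of all genes.

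In the SERINC family, SERINC3 and SERINC5 were measured, and the fitted probe sets of both lay below control on all 4 arrays, as did those of 15.1% of all genes. Of the other SERINC3 probe sets 1 was slightly above control on the Jurkat 381 array, by 0.02. SERINC3 had an average of -0.30 ± 0.15 (SE) and SERINC5 of -0.34 ± 0.19, each with a limma adjusted p above 0.8. Among the 5 other GET pathway genes the cochaperone gene SGTA had 0.37 ± 0.22, the chaperone gene BAG6 -0.46 ± 0.33 and CAMLG, the direct partner of GET1, -0.14 ± 0.18. CAMLG was above control only in K562 cells with hairpin 381 and below it on the other 3 arrays.

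Of 7 other TVP23 and YIPF genes 1 was above control on all 4 arrays, TVP23C. YIPF3 had an average of -0.35 ± 0.25 and YIPF6 of 0.22 ± 0.21. In the gamma-tubulin ring complex 2 of 10 other genes lay above control on all 4 arrays, gamma-tubulin itself (TUBG1, 0.16 ± 0.14) and TUBGCP5 (0.15 ± 0.18). TUBG2 had -0.49 ± 0.28 and TUBGCP2 -0.20 ± 0.20. All 10 averages lay between -0.49 and 0.16, while that of MZT1, chosen for its height, was 1.34.

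Among the BBSome and its chaperonin-like proteins 2 of 11 other genes were above control on all 4 arrays, MKKS and BBS7. MKKS, which acts beside BBS10, had an average of 0.23 ± 0.13, and its other probe set was also above control on all 4 arrays, by 0.21, 0.25, 0.35 and 0.18. The BBSome subunit genes TTC8 and BBS1 had -0.36 ± 0.27 and -0.33 ± 0.25. In the CCT chaperonin, to which BBS10 is related, CCT6A was the 1 gene of unadjusted p under 0.05, with 0.27 ± 0.09 (limma adjusted p = 0.780). The others named by the rule were CCT3 (0.07 ± 0.09) and CCT8 (0.06 ± 0.08). Of the MRFAP1 and MORF4 genes, MORF4L1 and MORF4L2 were above control on all 4 arrays, by averages of 0.13 ± 0.08 and 0.09 ± 0.08, and MRGBP, a subunit of the acetyltransferase complex that holds MORF4L1, had -0.54 ± 0.27.

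**Figure D5:**
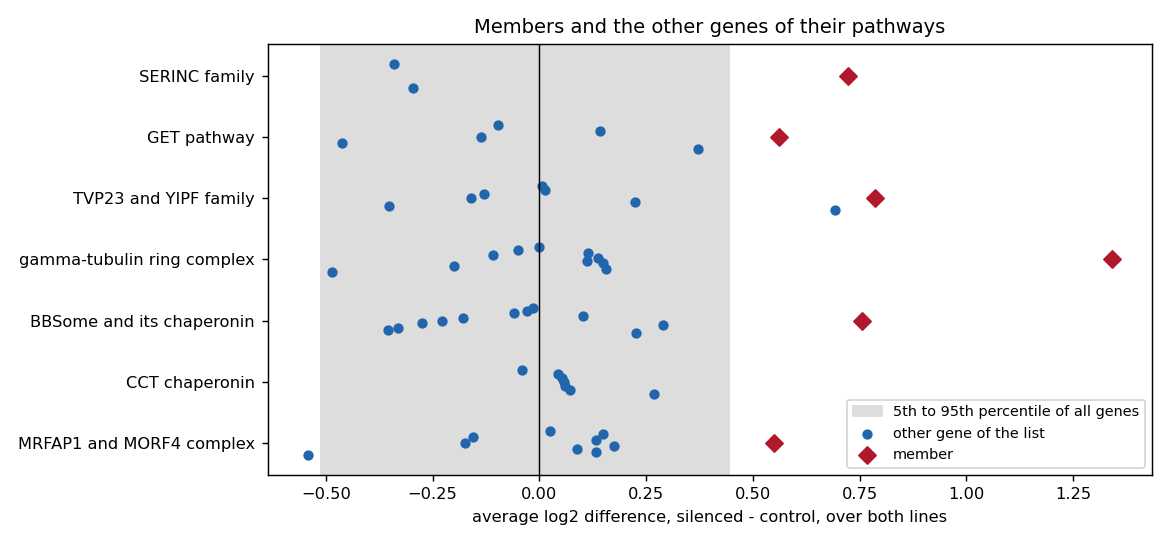
Average log2 difference to control over both lines of the members (red diamonds) and of the other measured genes of each list (blue points). The grey band runs from the 5th to the 95th percentile of all 11785 genes. The members lie to the right of the band, as their choice fixed, and TVP23C is the single other gene there.

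Across the 6 arrays the log2 values of 5 members followed each other closely, with Pearson's r between 0.898 (MZT1 and BBS10) and 0.989 (SERINC1 and GET1). MRFAP1L1 stood apart, with r between 0.342 and 0.636 to the other 5. These are descriptions over n = 6 arrays that share 2 lines and 2 control arrays, and the members were chosen for controls below the silenced arrays. The genes most like SERINC1 were MICB (r = 0.994), a stress-induced ligand of the NKG2D receptor, GET1 (0.989) and ABHD4 (0.989). For GET1 they were the cell cycle factor E2F1 (0.992), MICB (0.992) and SERINC1. EAF2, DPH5-DT and TMTC3 were most like TVP23B, with r between 0.982 and 0.985. ABCE1 (0.992), RPL7AP10 and ICE2 were most like MZT1, and MRPL24 (0.992), MICB (0.991) and WDR91 most like BBS10. For MRFAP1L1 the nearest were CATSPER1 (0.986), GSDMC (0.982) and MKKS (0.979). Likeness in r did not mean differences of like size: MICB had log2 differences between 0.16 and 0.24, and E2F1 between 1.68 and 2.32. On the Jurkat and K562 controls CATSPER1 (33.2 and 68.6) and E2F1 (49.0 and 46.0) read below the background level (50.6 and 94.5). GSDMC was below it on the K562 control (80.1). The E2F1 differences therefore give no exact size.

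Neighbours were the nearest measured protein-coding gene on each side in the RefSeq table. Genes not measured were passed over and distance was not limited, so a neighbour need not be adjacent. Of 12 neighbours 1 was above control on all 4 arrays, HMGN1 beside GET1, by values of at most 0.051. That is near the share of all genes, 12.7%. The averages of 9 of the 12 were above control. All 12 averages ran from -0.0854 (BLOC1S4, beside MRFAP1L1) to 0.311 (PCDH9, beside MZT1), with a median of 0.031. BORA, on the other side of MZT1, had 0.0225, and LCA5L, which overlaps GET1, had -0.0317.

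The promoters of the members were examined because ZFX binds DNA near start sites. All 6 matched the RefSeq promoter table, which gives 250 bases before and 50 after a start, and for genes with several starts the one at the end of the annotated gene was used. The motifs were chosen after the sequences had been seen. The ZFX core AGGCCT, which reads the same on both strands, was found in 1 of 6, the window of SERINC1, and in 10.9% of 35116 windows. SERINC1 is shown as the window with that core, in capitals, and MZT1, the gene of largest difference, as one without it. They are 250 bases before the start in GRCh38.p14, at chr6:122471808-122472057 and chr13:72727630-72727879, both on the minus strand and written 5′ to 3′ along the gene.
SERINC1: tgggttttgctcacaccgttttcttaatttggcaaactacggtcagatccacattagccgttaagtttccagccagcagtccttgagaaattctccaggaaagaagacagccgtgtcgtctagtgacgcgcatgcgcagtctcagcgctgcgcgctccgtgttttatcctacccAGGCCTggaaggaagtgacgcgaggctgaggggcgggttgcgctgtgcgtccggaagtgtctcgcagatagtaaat
MZT1: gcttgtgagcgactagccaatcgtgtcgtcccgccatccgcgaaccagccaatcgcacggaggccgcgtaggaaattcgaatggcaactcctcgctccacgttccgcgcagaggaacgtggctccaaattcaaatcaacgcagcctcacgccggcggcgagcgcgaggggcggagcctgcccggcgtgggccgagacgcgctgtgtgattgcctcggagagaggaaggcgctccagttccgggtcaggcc
The core begins at base -76 before the SERINC1 start.

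Other motifs were searched on both strands. The cyclic AMP response element core TGACG was found in the windows of SERINC1, GET1, TVP23B and MRFAP1L1, or 4 of 6, and in 24.6% of all windows. The ETS motif CCGGAAG was found in 2 (SERINC1 and BBS10) and in 10.3% of all windows, and the YY1 motif CCATNTT in 2 (SERINC1 and MRFAP1L1) and in 15.6%. The SP motif GGGCGG was found in 3 and in 45% of windows, and the NFY motif CCAAT in 2, MZT1 and TVP23B, and in 34.6%. All 6 windows had more CpG for their base composition than the median window, with observed over expected ratios from 0.656 (BBS10) to 1.19 (MRFAP1L1) against 0.579, and 45.3% of all windows had at least 0.656. Their GC content lay between 53% and 66%, with a median of 58.7% over all windows. These matches describe letters in a window and were not tested for binding.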

How the data were processed

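The authors deposited linear MAS5 signal intensities, 1 per probe set and array, per the submitters' processing notes; no version or setting was found in the labels. Each array was scaled to a common trimmed mean before deposit, as the values show. Detection calls were not used. From these intensities log2(signal + 16.9) was computed, 16.9 being the 25th percentile of all values. Gene names came from the platform's annotation table (41097 of 54675 with 1 symbol, 1801 with several, 11777 with none). After leaving out 62 array controls, probe sets above the median (a signal of 54.4) were kept, and the brightest on average represented each of 11785 genes.

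Genes were fitted with limma 3.58.1 in R 4.3.3, with an intensity trend and Benjamini-Hochberg adjustment (threshold 0.05, two-sided), as 4 groups (2 residual degrees of freedom), or by line and arm for the hairpins. No control was replicated, so the spread comes from the silenced arrays, and p-values measure differences between pooled arrays. The fits were tested on simulated data. Named were the 6 members, up to 3 genes of smallest p in each pathway list and the 3 genes most correlated with each member. Also named were ZFX, BBS12, close relatives, neighbours and exceptions to a count. Members and lists were chosen with earlier results of these data known. Alternatives varied the pseudocount, filter, normalization, probe set rule, trend, block and arrays used.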

Additional observations from a re-analysis of the deposited data

How the results depend on the processing

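The members' average differences to control stayed positive under all 12 alternatives. Their choice fixed this sign with single silenced arrays left out, and the filters and the block left the averages unchanged. Nothing is therefore read from the sign. The averages moved by more than the spread over arrays for MZT1 only with the mean of its probe sets. For the 5 other genes they did so only after scaling to the poly-A spikes, and the cause was not tested. That scaling, added after seeing the data, gave 46 genes that passed in the average of both lines, 13 in K562 cells and 839 between the hairpins, and 65 genes above control on all 4 arrays, with 4 of 7 member probe sets. It moved the median line difference of all genes from -0.0377 to 0.706, and thereby reversed the line difference of SERINC1 (0.48), GET1 (0.61), TVP23B (0.26), MZT1 (0.040) and BBS10 (0.49), the hairpin difference of SERINC1 (-0.17), GET1 (-0.20), TVP23B (-0.21) and BBS10 (-0.27), and the interaction of TVP23B (-0.15). Without a filter 2370 genes lay above control on all 4 arrays, since more were measured. With the filter at the 75th percentile, which tests fewer genes, 4248 passed between the lines and 192 between the hairpins. Between the hairpins 16 passed with the mean of probe sets and 0 without an intensity trend (1427 at an unadjusted p under 0.05), against 109.

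With the replicate block, which pairs arrays of the same hairpin, 5 genes passed in the average of both lines (DERL1, DESI2, E2F1, MZT1 and SMC1A) and 7617 between the lines, where SERINC1 and MZT1 also passed. The labels share only the hairpin number, and the deviations of the hairpins correlated between the lines with r = 0.215 across genes. MZT1 was chosen on this contrast, so its call supports nothing.

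Leaving out single arrays, the genes passing ranged from 0 to 2 in the average (E2F1 and MZT1 without the K562 array with hairpin 381), were 0 in Jurkat cells, in K562 cells and in the interaction, and ranged from 6001 to 6569 between the lines and from 46 (without the K562 control) to 235 (without the Jurkat array with hairpin 1012) between the hairpins, where 63 passed without the Jurkat control and 63 without the K562 array with hairpin 1012. Genes above control on all 3 remaining silenced arrays ranged from 2067 to 2208, and member probe sets from 6 to 7. The signs that turned belonged to the hairpin difference of MRFAP1L1 (-0.15 to 0.080) and of TVP23B (-0.12 to 0.34), to the line difference of GET1 (-0.33 to 0.046), and to the interactions of SERINC1 (-0.19 to 0.12), GET1 (-0.14 to 0.037), MZT1 (-0.90 to 0.34) and TVP23B (-0.066 to 0.31). Without the Jurkat control the line differences of SERINC1, MZT1 and BBS10 passed. Those of SERINC1 and MZT1 also changed calls with single K562 arrays left out. The line call of TVP23B was lost without either silenced Jurkat array or the K562 control, and that of MRFAP1L1 without the Jurkat control or either silenced K562 array. Leaving out an array changes the share of control in a line's mean. Line differences then move with the silencing difference that chose the members, so nothing is read from these line calls. Silencing could not be fitted in a line without its control. The signal over background limits mainly the second MZT1 probe set.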

Other observations

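Of the 33 genes taken as background, TNNI3, the cardiac troponin I gene, was bright in K562 cells. Its K562 control read 1390, the 381 array 2061 and the 1012 array 2216, and the Jurkat arrays 28.9, 40.4 and 36.3. TNNI3 was thus above control on all 4 silenced arrays too, and was singled out after its values were seen. The 95th percentile used as background contains it.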
